A study of Zea mays with 20 samples.

Results

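Young maize leaves carrying 1 or 2 copies of the dominant allele Kn1-N were compared to show what the second copy adds. The comparison used the 2 homozygous (Kn1-N/Kn1-N) and the 2 heterozygous (Kn1-N/+) leaf libraries, 4 of the 20 libraries in the series, and all genes in them. The 2 libraries of wild-type siblings (+/+) served as the reference for the first copy. All plants were labelled as inbred B73 and grown in the greenhouse in flat trays for 10 days after germination. The sampled tissue was the rolled young leaf, a cylinder of 7 to 8 mm in length and 1 to 2 mm in width that began 2 to 3 mm above the shoot apical meristem. The remaining libraries of the series, from tassels, ears and meristems of loss-of-function plants, were not used. How many plants went into a library, and whether replicates came from separate plantings, was not given in the labels, so p-values measure only the spread between these libraries, which may be technical.

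KNOTTED1 is a homeobox transcription factor of the KNOX class. It is normally made in the shoot meristem and stem and kept out of leaves, and it holds cells in an indeterminate state. Dominant Kn1 alleles are known for expression of the gene in leaf blades, with knots of extra growth along the veins and displaced ligule and sheath tissue. Leaf growth near the meristem depends on dividing cells, in which GROWTH-REGULATING FACTORs and their coactivator GIF1 act, and further up on expansion, which needs new cellulose, wall loosening and water uptake.

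Homozygous libraries held 16542370 and 20599373 counts, heterozygous ones 20535139 and 20670084, and wild-type ones 19500856 and 18922133, and 22071 genes passed the filter on low counts. Levels below are CPM, the usual per-library scaling of counts, with TMM factors applied, and changes are log2 fold changes of homozygote over heterozygote ± SE from edgeR's quasi-likelihood test. A gene was called where its Benjamini-Hochberg adjusted p over all tested genes was under 0.05. CPM are not divided by transcript length, so levels were compared between libraries and not between genes.

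The 2 heterozygous libraries did not sit alike. On log2 CPM over 22071 genes, heterozygote replicate 2 correlated at 0.9896 and 0.9892 with the homozygous libraries, and heterozygote replicate 1 at 0.9854 and 0.985. Against wild type, replicate 1 reached 0.9933 and 0.9922, and replicate 2 0.9905 and 0.9906. In 851 of the 1049 called genes (81.1%) heterozygote replicate 2 lay nearer to the homozygous mean than replicate 1 did. The comparison called 3105 genes without heterozygote replicate 2 and 559 without heterozygote replicate 1. Without either homozygous library the comparison called fewer genes than with all libraries. Counts for most gene groups are therefore followed by the counts without a library where that moved them by over 1.5 times.

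Marker genes of other tissues were summed in each library. The 12 mature-blade photosynthesis genes summed to 583.6 CPM in heterozygote replicate 1 and 588.3 CPM in wild-type replicate 1, against 720.1 to 766.0 CPM in the other 4 libraries. The 6 small heat shock and hsp101 genes that mark handling or heat summed to 36.4 and 56.7 CPM in homozygotes, 8.79 and 12.6 CPM in heterozygotes, and 8.32 and 24.7 CPM in wild type. The 6 meristem and stem genes other than kn1 summed to 18.3 and 20.3 CPM in homozygotes and 20.9 and 20.6 CPM in heterozygotes, nearly all of it from fea2. Wild type, at 23.0 and 19.0 CPM, overlapped both groups, and no member was called. Floral and pollen genes (15) summed to 121.4 to 136.9 CPM, nearly all of it from m19 (115.2 to 132.2 CPM), and 4 of them stood at 0 in all leaf libraries. Vascular and lignifying genes (12) summed to 89.3 to 96.4 CPM, most of it from cesa10 (73.0 to 80.4 CPM), and 7 of them stood at 0. Among these 12 genes Laccase-17 (GRMZM2G072808) was called lower with the second copy, while another gene listed as Laccase-17 was among those at 0. Of the 12 mature-blade genes 1 was called lower (background 3.12%). Of the 5 tested handling or heat genes 3 were called higher (background 1.64%). The root marker Lsi1 stood at 3.43 and 2.52 CPM in homozygotes, 1.69 and 2.42 CPM in heterozygotes, and 0.304 and 0.314 CPM in wild type. Its level thus differed by genotype, with a log2 change of 2.71 from wild type to heterozygote.

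Between homozygotes and heterozygotes 1049 genes were called, 4.75% of those tested. Of these, 361 rose (1.64% of genes tested) and 688 fell (3.12%). Most steps were small. The median change was 0.42 among genes that rose and −0.57 among genes that fell, and 46 of the rises and 161 of the falls were at least 2-fold. The homozygous and heterozygous libraries did not overlap in any called gene, as was also the case for 52.2% of all genes tested. For the first copy, heterozygote against wild type, the same fit called 28 genes higher (0.127%) and 4 lower (0.0181%). Both steps share the heterozygous libraries, so they are not independent.

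**Figure D1:**
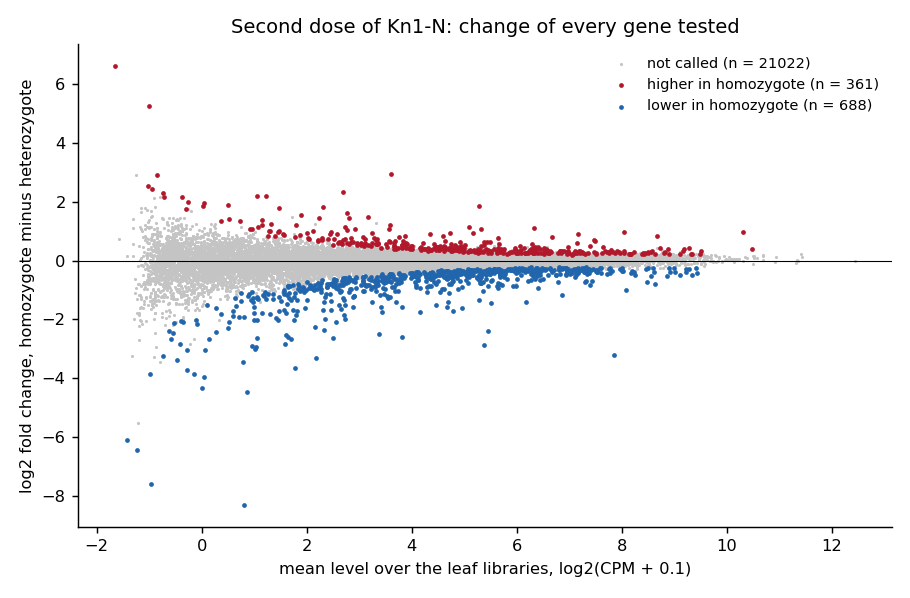
Change of every gene tested between homozygous and heterozygous Kn1-N leaf (y axis, log2 fold change) against its mean level over the 6 leaf libraries (x axis, log2 of CPM plus 0.1). Red points mark the 361 genes called higher in homozygotes, blue points the 688 called lower and grey points genes not called; falls of at least 2-fold (161) outnumber rises of that size (46).

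The transcript of kn1 itself (GRMZM2G017087) rose again with the second copy. It stood at 9.92 and 11 CPM in homozygotes, 4.97 and 6.1 CPM in heterozygotes, and 0.0507 and 0 CPM in wild type. All homozygous libraries were above all heterozygous ones, and wild-type leaf held a single kn1 count in all. The second copy added 0.92 ± 0.16 on the log2 scale (adjusted p = 0.0053), a 1.89-fold rise. The call was lost only without homozygote replicate 2 (adjusted p = 0.12). From wild type to heterozygote the ratio of summed counts was 215, with an exact 95% interval of 38.2 to 8520 that covers counting error only.

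Other KNOX genes did not pass the test for the second copy. Of these, lg3 and lg4 rose with the first copy (adjusted p = 6.4e-05 and 0.00037). The transcript of lg3 (GRMZM2G087741), a KNOX gene named for the liguleless leaves of its dominant mutants, stood at 4.96 and 5.68 CPM in homozygotes, 3.86 and 3.49 CPM in heterozygotes, and 0.203 and 0.0524 CPM in wild type. Its second step was 0.54 ± 0.19 and did not pass the test (adjusted p = 0.13, and 0.12 to 0.59 under the alternatives). The transcript of lg4 (GRMZM2G094241), another KNOX gene of this kind, stood at 2.45 and 2.12 CPM in homozygotes, 1.88 and 2.28 CPM in heterozygotes, and 0.0507 and 0.0524 CPM in wild type. The homozygous and heterozygous libraries overlapped, and its second step was 0.13 ± 0.24 (adjusted p = 0.81). The ratio of summed lg4 counts from wild type to heterozygote was 40.3 (exact 95% interval 10.8 to 338). The remaining tested members of the KNOX and BELL list, knox6 and knox7, gave second steps of −0.03 ± 0.09 and 0.05 ± 0.08. Only kn1 of the 5 tested members was called (background 1.64% called higher).

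**Figure D2:**
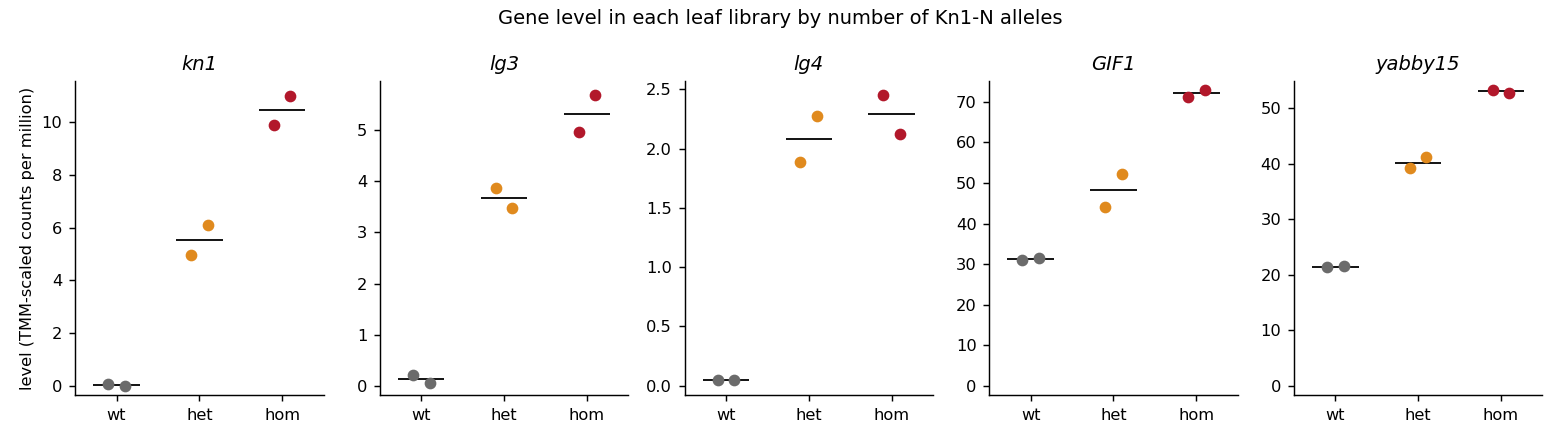
TMM-scaled CPM (y axis, separate scale for each gene) of kn1, lg3, lg4, GIF1 and yabby15 in each leaf library, by genotype (wt, wild type; het, heterozygote; hom, homozygote). Points are libraries and bars group means (n = 2). The levels of kn1, lg3, GIF1 and yabby15 are higher in both homozygous than in both heterozygous libraries, whereas lg4 overlaps between them. The second step of lg3 did not pass the test. These groups did not overlap in 52.2% of all genes tested.

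Growth-regulating factors and their GIF coactivator were among the genes that rose with the second copy. Of 17 tested members, 6 rose and none fell, at a background of 1.64% of all genes called higher. The median second step of the list was 0.35 and its median first step 0.06, against 0.003 and 0.002 over all genes tested. The coactivator GIF1 (GRMZM2G180246), whose protein binds growth-regulating factors, stood at 71.1 and 73.0 CPM in homozygotes, 44.1 and 52.2 CPM in heterozygotes, and 31.0 and 31.4 CPM in wild type. It climbed at each step without overlap, by 0.63 with the first copy (adjusted p = 0.0059) and by 0.58 ± 0.08 with the second (adjusted p = 0.001), and this call held under all 12 alternatives.

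Growth-regulating factors are transcription factors known in Arabidopsis and maize for promoting cell division in young leaves. GRF3 (GRMZM2G105335) stood at 36.6 and 38.8 CPM in homozygotes, 28.2 and 28 CPM in heterozygotes, and 29.0 and 30.9 CPM in wild type. It rose by 0.43 ± 0.08 with the second copy (adjusted p = 0.0072), while its first step of −0.09 did not pass the test. GRF14 (GRMZM2G098594) rose by 0.54 ± 0.12 (adjusted p = 0.02), from 11.3 and 14.3 CPM in heterozygotes to 18.7 and 18.3 CPM. GRF2 (GRMZM2G099862) rose by 0.34 ± 0.08 (adjusted p = 0.031), GRF13 by 0.35 ± 0.09 (adjusted p = 0.04) and GRF11 by 0.55 ± 0.14 (adjusted p = 0.044). Members that did not pass ranged from −0.10 for GIF2 to 0.97 for the gene listed as atGRF5 (adjusted p = 0.055). Without homozygote replicate 1 or homozygote replicate 2, 1 member was called, without heterozygote replicate 1, 2 members, and without heterozygote replicate 2, 9 members. Without wild-type replicate 1 the count was 4 and without wild-type replicate 2 it was 3, and DESeq2 called 2.

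Among YABBY genes, transcription factors of lateral organs, 1 of 7 rose (background 1.64%) and 1 fell (background 3.12%). The transcript of yabby15 (GRMZM2G529859) stood at 53.3 and 52.7 CPM in homozygotes, 39.2 and 41.2 CPM in heterozygotes, and 21.4 and 21.5 CPM in wild type. It climbed at both steps, by 0.91 with the first copy (adjusted p = 6.4e-05) and by 0.40 ± 0.07 with the second (adjusted p = 0.0054). YAB3 (GRMZM2G106204) fell by 0.53 on the log2 scale (SE 0.12, adjusted p = 0.026), from 19.2 and 16.2 CPM in heterozygotes to 11.3 and 13.2 CPM. Both calls were lost without homozygote replicate 1 and without homozygote replicate 2, and that of YAB3 also without heterozygote replicate 1.

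Regulators of leaf polarity and ligule position gave no call, at a background of 4.75% of all genes called in either direction. Lists this short can hold no call at that share. None of 9 tested leaf polarity genes passed, among them rs2, a MYB gene that keeps KNOX genes off in leaves, at 80.1 and 81.9 CPM in homozygotes and 81.7 and 80.2 CPM in heterozygotes (change 0.00 ± 0.06). None of 8 tested ligule genes passed, with lg1, an SBP-box gene required for the ligule, at 1.1 and 1.48 CPM against 1.35 and 1.26 CPM, and lg2 at a change of 0.42 ± 0.20. No member was called among 21 SBP-box, 7 TCP, 14 MADS-box, 5 LOB domain, 7 gibberellin, 28 cytokinin, 3 brassinosteroid, 7 vascular, 14 histone and 4 clock genes. Without heterozygote replicate 2, when more genes were called over the whole set, some SBP-box, vascular, gibberellin, cytokinin and histone genes were called. Of the 121 tested genes in the lists with no call, 21 had an unadjusted edgeR p under 0.05 and DESeq2 called none. Over all genes tested, 4653 of 22071 had such an edgeR p, so these lists held no excess. The medians of these lists lay between −0.12 and 0.20.

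Most tested cellulose synthase genes fell with the second copy. They encode the catalytic subunits of the plasma membrane complexes that spin cellulose. Of 11 tested members, 7 fell and none rose, at a background of 3.12% called lower. The median second step was −0.38 and the median first step −0.11, with no member called in the first step. CesA-4 (GRMZM2G424832) stood at 104 and 102 CPM in homozygotes, 157 and 144 CPM in heterozygotes, and 163 and 162 CPM in wild type. It fell by 0.55 on the log2 scale (SE 0.06, adjusted p = 0.00031), and its first step was −0.11. In bulk leaf tissue, fewer cells of a type and less RNA per cell cannot be told apart.

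CesA-2 (GRMZM2G027723) fell from 343 and 307 CPM in heterozygotes to 232 and 232 CPM, a change of −0.49 ± 0.06 (adjusted p = 0.00073). CesA-7 (GRMZM2G025231) changed by −0.47 ± 0.07 (adjusted p = 0.0023) and CesA-8 (GRMZM2G177631) by −0.39 ± 0.06 (adjusted p = 0.0028). CesA-1, CesA-6 and CesA-9 fell by 0.32 to 0.45 on the log2 scale. CesA-3 and CesA-5, with changes of −0.07 ± 0.06 and −0.14 ± 0.06, did not pass. Nor did CesA12 and cesa10, subunits of lignified secondary walls, at −0.31 ± 0.16 and 0.08 ± 0.06. In each called gene heterozygote replicate 2 lay below heterozygote replicate 1 and above both homozygous libraries. The calls of CesA-2, CesA-4 and CesA-7 held under all 12 alternatives. The count was 4 without homozygote replicate 1, 3 without homozygote replicate 2, 6 without heterozygote replicate 1 and 7 without heterozygote replicate 2. CesA genes are close copies of each other, and how reads that fit several copies were counted was not given, so the split between copies is uncertain.

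**Figure D3:**
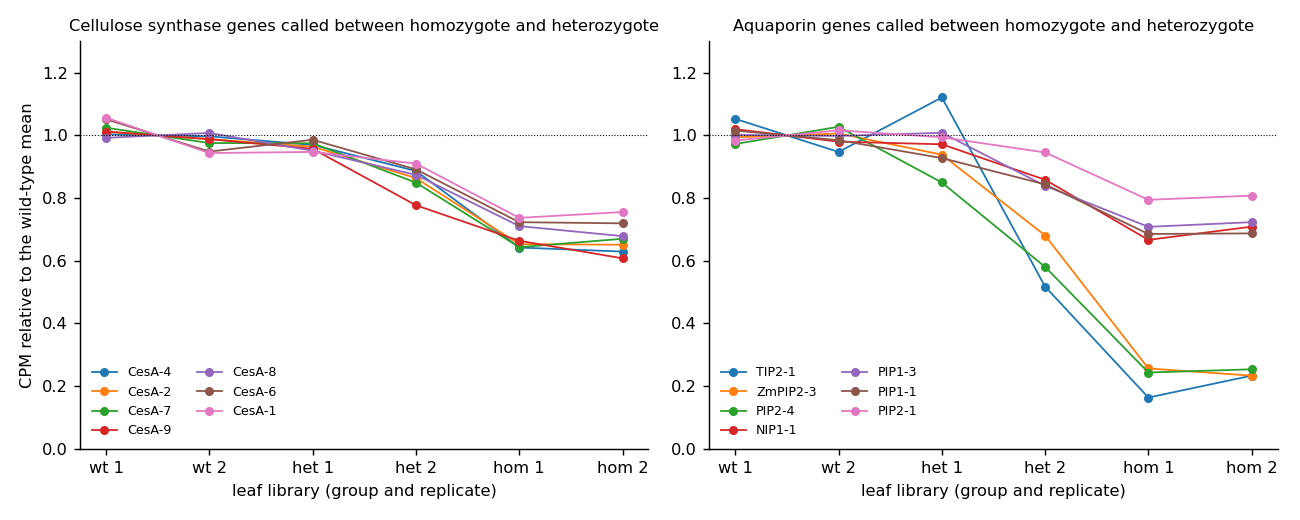
CPM of each called cellulose synthase gene (left) and aquaporin gene (right) in the 6 leaf libraries (x axis), divided by its wild-type mean (y axis, 1 = wild-type mean, n = 2). Lines join the libraries of one gene to guide the eye; the homozygous libraries are the lowest for every gene drawn, and ZmPIP2-3, PIP2-4 and TIP2-1 fall furthest.

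Several aquaporins, the channels that carry water across membranes, fell as well. Of 15 tested members 7 fell and none rose (background 3.12%), and the median second step was −0.37 against a median first step of −0.04. ZmPIP2-3 (GRMZM2G081192), a plasma membrane channel, stood at 6.67 and 6.08 CPM in homozygotes, 24.4 and 17.7 CPM in heterozygotes, and 25.9 and 26.2 CPM in wild type. Its change was −1.73 ± 0.15 with the second copy (adjusted p = 5.5e-05) and −0.30 with the first (adjusted p = 0.66). PIP2-4 (GRMZM2G154628), of the same class, stood at 8.2 and 8.55 CPM in homozygotes, 28.6 and 19.6 CPM in heterozygotes, and 32.8 and 34.6 CPM in wild type. It changed by −1.52 ± 0.16 (adjusted p = 0.00021). Both calls held under all 12 alternatives.

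TIP2-1 (GRMZM2G027098), a channel of the vacuole membrane, stood at 0.796 and 1.14 CPM in homozygotes and 5.46 and 2.52 CPM in heterozygotes, a change of −2.02 ± 0.37 (adjusted p = 0.0074). The heterozygous libraries differed by more than 2-fold here, and the call was lost without homozygote replicate 1 and without homozygote replicate 2 (highest adjusted p 0.08). The more evenly counted members fell by less. PIP1-1 (GRMZM2G174807) went from 643 and 585 CPM to 475 and 476 CPM, a change of −0.37 ± 0.06 (adjusted p = 0.0037), and NIP1-1 (GRMZM2G041980) from 187 and 165 CPM to 128 and 136 CPM, a change of −0.41 ± 0.07 (adjusted p = 0.0042). PIP1-3 changed by −0.37 ± 0.08 and PIP2-1 by −0.28 ± 0.05. Lsi1, the silicon channel, moved the other way without passing (0.52 ± 0.26, adjusted p = 0.27). The list count was 2 without homozygote replicate 1, 3 without homozygote replicate 2, 7 without heterozygote replicate 1 and 8 without heterozygote replicate 2. Members of the PIP class share long stretches of coding sequence, so the split of reads between them is uncertain.

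Further falls lay in a list of other wall genes. Of 17 tested genes for xyloglucan remodelling, expansins, glucanases and mixed-linkage glucan synthesis, 5 fell and none rose (background 3.12%), and 15 of the 17 had a negative second step (median −0.32; first step −0.21). The xyloglucan endotransglucosylase gene xth1 (GRMZM2G119783) stood at 0.98 and 1.14 CPM in homozygotes, 4.54 and 3.24 CPM in heterozygotes, and 5.63 and 4.61 CPM in wild type. It changed by −1.86 ± 0.27 (adjusted p = 0.0016) and stayed called under all 12 alternatives. The alpha-expansin EXPA5 (GRMZM2G361064) changed by −1.02 ± 0.17 (adjusted p = 0.0039), from 6.86 and 7.36 CPM to 3.92 and 3.16 CPM. The beta-expansin expB4 (GRMZM2G154178) stood at 34.8 CPM in heterozygote replicate 1 but 17.7 CPM in replicate 2, against 14.4 and 12.8 CPM in homozygotes (−0.95 ± 0.22, adjusted p = 0.027).

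CslF6-1 (GRMZM2G110145), a synthase of mixed-linkage glucan and so not a wall-loosening gene, fell from 162 and 129 CPM to 110 and 111 CPM, a change of −0.39 ± 0.08 (adjusted p = 0.019). The fifth gene, Cel12Chr1, changed by −0.71 ± 0.18 (adjusted p = 0.035). The list count was 2 without homozygote replicate 1, 1 without homozygote replicate 2, 2 without heterozygote replicate 1 and 8 without heterozygote replicate 2, and DESeq2 called 3. The call of expB4 was lost when any 1 library other than heterozygote replicate 2 was left out.

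Lignin and cuticle genes showed smaller groups of falls. Of 13 tested lignin and phenylpropanoid genes 3 fell (background 3.12%) and none rose (median −0.12). CCOAOMT2 (GRMZM2G099363), a methyltransferase of lignin precursors, went from 15.6 and 15.5 CPM to 10.5 and 9.88 CPM, a change of −0.61 ± 0.10 (adjusted p = 0.005). Laccase-17 (GRMZM2G072808), of the oxidases that polymerise lignin, changed by −0.69 ± 0.12 (adjusted p = 0.007), and 4CL (GRMZM2G075333), 4-coumarate-CoA ligase, by −0.70 ± 0.13 (adjusted p = 0.0089). Without homozygote replicate 1 and without homozygote replicate 2, 1 of the 3 was called.

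Of 8 tested cuticle genes 2 fell (background 3.12%) and 1 rose (background 1.64%). WIN1 (GRMZM2G085678), whose Arabidopsis namesake switches on wax synthesis, stood at 5.88 and 5.73 CPM in homozygotes, 16.2 and 11 CPM in heterozygotes, and 17.9 and 14.8 CPM in wild type. It changed by −1.23 ± 0.18 (adjusted p = 0.0019), a call that held under all 12 alternatives. The wax gene glossy2 (GRMZM2G098239) changed by −0.43 ± 0.09 (adjusted p = 0.016). CER1 (GRMZM2G099097), whose Arabidopsis namesake makes wax alkanes, rose by 0.27 ± 0.06 (adjusted p = 0.026), from 102 and 112 CPM to 130 and 128 CPM. The calls of glossy2 and CER1 were lost without homozygote replicate 1 and without homozygote replicate 2, and that of CER1 also without heterozygote replicate 1.

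**Figure D4:**
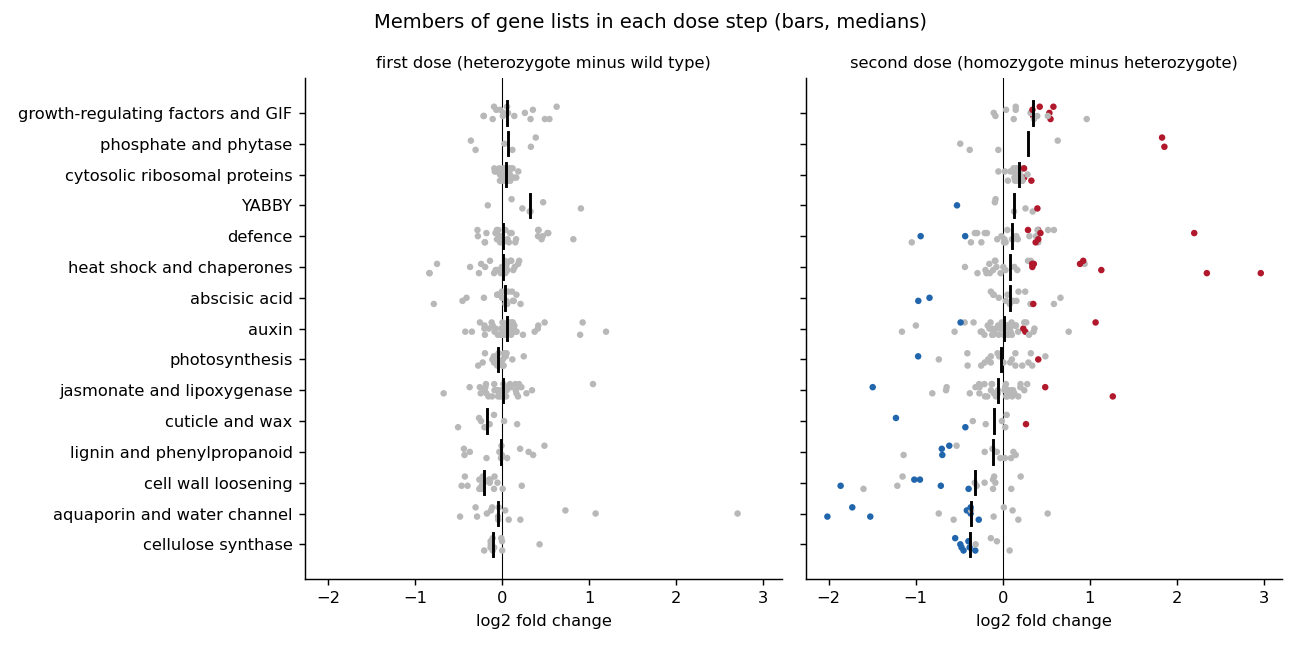
Log2 fold change (x axis) of each tested member of the 15 gene lists with at least 2 called members, in the first-dose step (left, heterozygote minus wild type) and the second-dose step (right, homozygote minus heterozygote). Red and blue points on the right mark members called higher and lower, grey points members not called there, and black bars list medians; on the right the median is 0.35 for growth-regulating factors and −0.38 for cellulose synthases.

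Hormone lists were mixed. Of 47 tested auxin genes 3 rose (background 1.64%) and 1 fell (background 3.12%), with a median of 0.01. GH3 (GRMZM2G378106), named for enzymes that conjugate auxin to amino acids, went from 1.35 and 1.69 CPM to 3.25 and 3.16 CPM (1.07 ± 0.24, adjusted p = 0.022). PIN1a (GRMZM2G098643), an auxin efflux carrier, rose by 0.26 ± 0.07 (adjusted p = 0.039) and the auxin response factor ARF3 (GRMZM2G078274) by 0.24 ± 0.06 (adjusted p = 0.037). AUX32 (GRMZM2G152796) fell by 0.48 on the log2 scale (SE 0.12, adjusted p = 0.031). None of the 4 auxin calls held without homozygote replicate 1 or without homozygote replicate 2, and no auxin gene was called there. More auxin genes were called without heterozygote replicate 2 and fewer without heterozygote replicate 1, as was the case over all genes. The list median was 0.03 without heterozygote replicate 2. The list had 1 called higher and 1 lower without either wild-type library and with the 4 mutant libraries alone, scaling by library totals gave 1 higher and 2 lower, and DESeq2 called 1.

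Of 38 tested lipoxygenase and jasmonate genes, 2 rose (background 1.64%) and 1 fell (background 3.12%). The lipoxygenase lox12 (GRMZM2G106748) stood at 2.88 and 2.42 CPM in homozygotes, 8.02 and 6.83 CPM in heterozygotes, and 9.44 and 9.8 CPM in wild type (−1.49 ± 0.17, adjusted p = 0.00035), a call that held under all 12 alternatives. In the other direction lox11 (GRMZM2G009479) rose by 0.49 ± 0.08 (adjusted p = 0.0033) and lox3 (GRMZM2G109130) by 1.27 ± 0.25 (adjusted p = 0.012). Without heterozygote replicate 2 the list had 3 genes called higher and 4 lower, without homozygote replicate 1 it had 1 lower, and with scaling by library totals it had 2 higher and 3 lower. The lox11 call was lost without homozygote replicate 1, and that of lox3 without either homozygous library and without heterozygote replicate 1.

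Of 17 tested abscisic acid genes 1 rose (background 1.64%) and 2 fell (background 3.12%). The kinase gene SnRK2.7 (GRMZM2G155593) rose by 0.35 ± 0.08 (adjusted p = 0.018). SnRK2.11 (GRMZM2G063961), of the same kinase class, changed by −0.84 ± 0.14 (adjusted p = 0.0047), and the gene listed as aba1 (GRMZM2G136910) by −0.97 ± 0.17 (adjusted p = 0.007). No abscisic acid gene was called without homozygote replicate 2. Of 6 tested ethylene genes the gene listed as ACO31 (GRMZM2G072529) was called lower (background 3.12%). It held 3 counts in both homozygous libraries together against 38 in the heterozygous ones, a count ratio of 0.0893 (exact 95% interval 0.0176 to 0.281), and the call was lost without homozygote replicate 1 and without homozygote replicate 2.

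Several heat shock and chaperone genes rose with the second copy. Of 26 tested members 8 rose and none fell (background 1.64%), and the list median was 0.08. The small heat shock protein gene hsp18f (GRMZM2G083810) stood at 19.1 and 33.8 CPM in homozygotes, 2.32 and 4.5 CPM in heterozygotes, and 1.27 and 11 CPM in wild type. It rose by 2.97 ± 0.52 (adjusted p = 0.006), but wild-type replicate 2 also lay above both heterozygous libraries. The gene hsp22 (GRMZM2G007729) had the same order, at 10.8 and 13.7 CPM in homozygotes, 1.93 and 2.91 CPM in heterozygotes, and 1.37 and 7.34 CPM in wild type (2.35 ± 0.43, adjusted p = 0.0079).

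Hsp70 (GRMZM2G310431), a general chaperone, went from 19.0 and 30.2 CPM to 45.7 and 61.7 CPM (1.13 ± 0.23, adjusted p = 0.013). CPN60II (GRMZM2G416120), of the chloroplast and mitochondrial chaperonins, rose by 0.34 ± 0.08 (adjusted p = 0.022). The other called members were hsp101, hsp1 and 2 genes listed as CPN60I. With the 4 mutant libraries alone, 4 members were called higher. No member was called without homozygote replicate 2, 4 without homozygote replicate 1, 3 without heterozygote replicate 1 and 11 higher without heterozygote replicate 2, and DESeq2 called 3. The handling or heat markers, whose list shares genes with these, were higher in both homozygous libraries (36.4 and 56.7 CPM) than in both heterozygous ones (8.79 and 12.6 CPM), and their part in the result was not tested.

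Of 31 tested defence genes 6 rose (background 1.64%) and 2 fell (background 3.12%). The proteinase inhibitor gene MPI (GRMZM2G028393) stood at 6.43 and 3.36 CPM in homozygotes, 1.01 and 1.07 CPM in heterozygotes, and 0.406 and 1.05 CPM in wild type (2.20 ± 0.36, adjusted p = 0.004). Genes of benzoxazinoid synthesis, which makes the main defence compounds of young maize, were called higher at BX3, BX5, bx8 and bx9. BX5 (GRMZM2G063756), a cytochrome P450 of this pathway, went from 1380 and 1400 CPM to 1910 and 1770 CPM (0.41 ± 0.10, adjusted p = 0.027), over 896 and 1190 CPM in wild type. The gene listed as DEF1 (GRMZM2G153488), placed in the list by its symbol alone, rose by 0.43 ± 0.06 (adjusted p = 0.0012), and its call held under all 12 alternatives. The cystatin gene cc3 (GRMZM2G440968), an inhibitor of cysteine proteases, changed by −0.94 ± 0.19 (adjusted p = 0.013), and cc5 by −0.43 ± 0.11 (adjusted p = 0.047). Without homozygote replicate 1 the gene listed as DEF1 was the only member of the list called. Without homozygote replicate 2 the list had 2 calls, without heterozygote replicate 1 it had 4 higher and 1 lower, and without heterozygote replicate 2 it had 7 higher and 4 lower. DESeq2 called 4.

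Of 36 tested cytosolic ribosomal protein genes 3 rose (background 1.64%). The median second step of the list was 0.19, and 35 of the 36 steps were positive, against 50.7% of the steps of all genes tested. Those that passed were RPL10 (0.25 ± 0.06, adjusted p = 0.038), rps6-2 (0.25 ± 0.06, adjusted p = 0.04) and arpp2a-2 (0.33 ± 0.09, adjusted p = 0.044). The count was 26 without heterozygote replicate 2, 1 without heterozygote replicate 1, and 0 without either homozygous library, without either wild-type library, with the 4 mutant libraries alone, and with scaling by library totals alone. Of 41 tested cell cycle genes only dnp2 was called, and it rose (background 1.64%) by 0.24 ± 0.06 (adjusted p = 0.045). Without heterozygote replicate 2 this list had 9 genes called higher and 3 lower, and with any other 1 library left out it had none. Of 22 tested photosynthesis genes 1 rose (background 1.64%) and 1 fell (background 3.12%). The gene psaN, a photosystem I subunit, rose by 0.41 ± 0.07 (adjusted p = 0.0073). The C4 enzyme gene pdk1 fell by 0.97 on the log2 scale (SE 0.20, adjusted p = 0.014). The calls of psaN and pdk1 were lost without homozygote replicate 1 and without homozygote replicate 2, and that of pdk1 also without heterozygote replicate 1. Without heterozygote replicate 2 the photosynthesis list had 5 genes called higher and 4 lower.

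Of 6 tested phosphate and phytase genes 2 rose (background 1.64%) and none fell. Phytases release phosphate from phytate. The transcript phytase2 (GRMZM2G043336) stood at 96.2 and 59.9 CPM in homozygotes, 20.8 and 22.0 CPM in heterozygotes, and 14.2 and 19.9 CPM in wild type (1.86 ± 0.18, adjusted p = 0.00013). The transcript phyS11 (GRMZM2G140101) stood at 11.4 and 8.2 CPM, 3.19 and 2.28 CPM, and 2.08 and 2.1 CPM in the same order (1.83 ± 0.21, adjusted p = 0.00031). The homozygous libraries lay far above the others at both genes, and both calls held under all 12 alternatives, although reads may be split between such near copies.

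Several of the largest named changes lay outside the lists. NNR1 (GRMZM2G568636), a nitrate reductase gene, stood at 5.88 and 5.73 CPM in homozygotes, 19.9 and 14.8 CPM in heterozygotes, and 18.1 and 19.7 CPM in wild type (−1.58 ± 0.15, adjusted p = 0.00011). The MYB transcription factor gene MYB61 (GRMZM2G108959) went from 14.9 and 10.5 CPM to 4.53 and 4.0 CPM (−1.58 ± 0.17, adjusted p = 0.00029). Myb20 (GRMZM2G150841) went from 2.75 and 1.94 CPM to 0.49 and 0.642 CPM (−2.02 ± 0.33, adjusted p = 0.0039). All of these calls held under all 12 alternatives, as did that of znod1 (GRMZM2G052562) at −1.35 ± 0.16. The annexin gene Ann8 (GRMZM2G132442) changed by −1.89 ± 0.33 and lost its call without homozygote replicate 2.

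Among named increases outside the lists, the homeobox gene HB127 (GRMZM2G119999) went from 0.869 and 0.872 CPM to 2.63 and 2.12 CPM (1.43 ± 0.29, adjusted p = 0.012). The gene listed as kin1 (GRMZM2G158394) went from 69.9 and 49.4 CPM to 152 and 108 CPM (1.12 ± 0.20, adjusted p = 0.0073). The call of HB127 was lost without either homozygous library and without heterozygote replicate 1, and that of kin1 without homozygote replicate 1.

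Genes with no name in the reference included the largest falls. GRMZM2G353469 had no count in either homozygous library, against 2.22 and 1.84 CPM in heterozygotes and 3.2 and 2.57 CPM in wild type, so it was at least 24.8-fold lower, taking 3 counts over both homozygous libraries as the floor. GRMZM2G003909 stood at 0.306 and 0.296 CPM in homozygotes, 5.41 and 2.23 CPM in heterozygotes, and 6.44 and 5.19 CPM in wild type (−3.64 ± 0.51). Among the unnamed increases, GRMZM2G160922 went from 1.16 and 0.823 CPM to 3.31 and 5.83 CPM (2.22 ± 0.31) and GRMZM2G020423 from 1.26 and 1.79 CPM to 6.92 and 3.95 CPM (1.81 ± 0.29). GRMZM2G455330 had no count in wild type, 0.58 and 1.07 CPM in heterozygotes and 4.04 and 2.22 CPM in homozygotes (1.89 ± 0.37). The call of GRMZM2G455330 was lost without homozygote replicate 1 and without heterozygote replicate 1, and the other 4 held under all 12 alternatives.

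Several calls lay next to kn1 on the chromosome. Only tested genes that matched exactly 1 reference gene have a place in the order used here, so other tested genes near kn1 may be missing. Of the 50 tested genes within 25 places of kn1 in the reference order of chromosome 1, 10 were called (20%), 9 of them lower and GIF1 higher, against 4.75% of all genes tested. The share was 6% in the next 150 genes, 4.5% in the 400 after those, 5.21% over the rest of chromosome 1 and 5.29% on the other chromosomes. GRMZM2G179490, 4 tested genes away, had 3 counts in the homozygous libraries together, 81 in the heterozygous and 120 in the wild-type libraries, a homozygote to heterozygote ratio of 0.0419 (exact 95% interval 0.00846 to 0.127). GRMZM2G147849, 20 genes away, stood at 104 and 106 CPM in homozygotes, 150 and 134 CPM in heterozygotes, and 186 and 186 CPM in wild type (−0.43 ± 0.06, adjusted p = 0.002).

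All 9 lower neighbours had both heterozygous libraries between the wild-type and homozygous ones, an order shared by 319 of all 688 genes called lower (46.4%). GRMZM2G179906, 8 genes away, changed by −0.58 ± 0.08 (adjusted p = 0.00091). GRMZM2G059964, GRMZM2G443453, GRMZM2G143238 and GRMZM2G028500, 10 to 21 genes away on one side, changed by −1.96 to −0.35. On the side of GIF1, which is 15 genes away, GRMZM2G416388 changed by −0.49 ± 0.10, and GRMZM2G143142 held 3 counts in homozygotes against 30 in heterozygotes (ratio 0.113, exact 95% interval 0.0221 to 0.364). The count within 25 genes was 5 without homozygote replicate 1, 4 without homozygote replicate 2, 8 without heterozygote replicate 1 and 13 without heterozygote replicate 2. Over all genes the shares called in those fits were 1.12, 0.738, 2.49 and 13.8%. How long a chromosome stretch came with the Kn1-N allele in these plants is not given in the labels, and its part in the result was not tested.

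**Figure D5:**
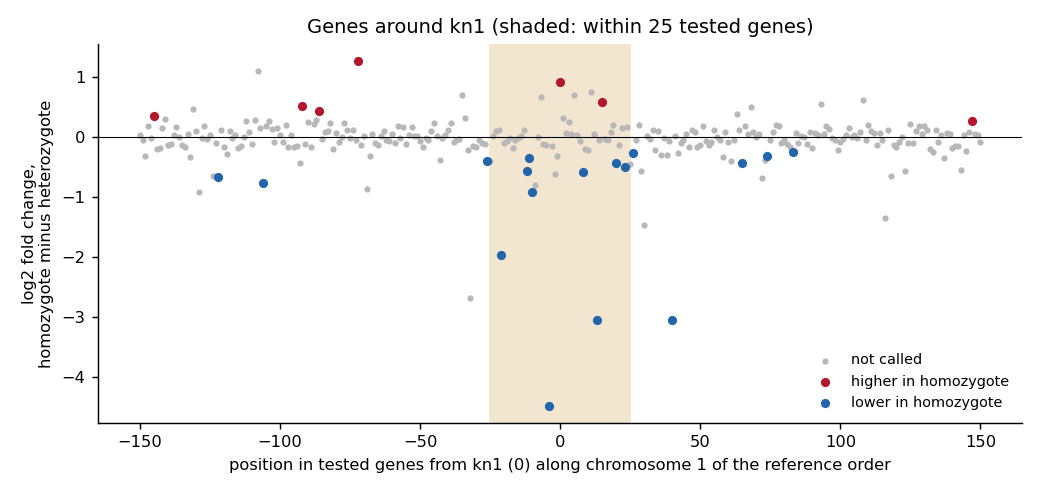
Log2 fold change between homozygous and heterozygous Kn1-N leaf (y axis) of the tested genes on each side of kn1, by their place in the reference order of chromosome 1 counted in tested genes (x axis, kn1 at 0). Only tested genes that matched exactly 1 reference gene are placed. Shading marks the 25 genes to each side, where 9 genes were called lower (blue) and GIF1, besides kn1, higher (red).

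The fit also tested whether the second step differed from the first on the log2 scale. The heterozygous libraries enter both steps with opposite sign, so the spread between them weighs most in this contrast. Of 22071 genes, 19 differed (0.0861%), 18 with a second step below the first (0.0816%) and 1 with a second step above it (0.00453%). Among them were kn1 (adjusted p = 0.002), lg3 (adjusted p = 0.0092) and lg4 (adjusted p = 0.017), whose wild-type levels were near 0. A gene that starts near 0 has a large first step on the log2 scale whatever amount each copy adds. In mean CPM kn1 went from 0.0254 in wild type to 5.54 in heterozygotes and 10.5 in homozygotes. Among named genes that fell, NNR1 had a first step of −0.12 and a second of −1.58 (adjusted p of the difference 0.041). ZmPIP2-3 had steps of −0.30 and −1.73 (adjusted p of the difference 0.044). No named gene passed this test with a second step above the first.

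The other genes of this set had no name and are given after their values were seen. GRMZM2G020940 was the gene with the larger second rise, at 396 and 407 CPM in homozygotes, 186 and 220 CPM in heterozygotes, and 171 and 196 CPM in wild type (second step 0.99, first step 0.14, adjusted p of the difference 0.0497). GRMZM2G009465 stood at 35.2 and 23.9 CPM in homozygotes, 347 and 196 CPM in heterozygotes, and 422 and 366 CPM in wild type. GRMZM2G087267 was near 0 in wild type, at 7.35 and 7.66 CPM, 4.06 and 5.04 CPM, and 0 and 0.0524 CPM in homozygotes, heterozygotes and wild type. GRMZM2G116592 was counted in the heterozygous libraries alone, at 1.21 and 1.26 CPM, with no count in the other 4.

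These differences rested on few libraries. Without wild-type replicate 2 edgeR called no gene, with 834 at an unadjusted p under 0.05 (1167 in all libraries), and leaving out wild-type replicate 1 gave 5 genes. Without homozygote replicate 1 the count was 10, without homozygote replicate 2 it was 8, and without heterozygote replicate 1 it was 12. Without heterozygote replicate 2 it was 270. In that fit the heterozygote is its replicate 1 alone, the library nearer to wild type, and the lone sample is assumed to vary like the other groups.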

How the data were processed

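Total RNA (1 ug) was made into Illumina TruSeq libraries with 13 PCR cycles, per the labels' protocols. The kit is not stranded, so a gene and its antisense partner share reads. The authors deposited raw counts per gene for 39656 gene IDs in 20 libraries. The submitters' processing notes name CASAVA 1.8, TopHat 1.2.0, HTSeq and DESeq 1.4.1, without roles. For the genome build, the annotation and reads that fit several genes, the procedure is not given in the sources used here.

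From these counts, the 6 leaf libraries were fitted with edgeR 4.0.16 in R 4.3.3 (quasi-likelihood F test, 3 residual degrees of freedom), with TMM scaling and filterByExpr at minima of 10 counts per library and 15 in total. Contrasts were homozygote minus heterozygote, heterozygote minus wild type, and their difference. P-values were adjusted by Benjamini-Hochberg over all tested genes. Each SE is the log2 change divided by the root of F, and is approximate. The biological coefficient of variation was 0.0540. Alternatives were other scalings, no filter, a replicate block, the 4 mutant libraries alone, DESeq2 1.42.0 and leaving out each library. In a fit that leaves a group with 1 library, that library is assumed to vary like the other groups. Exact 95% intervals cover counting error only.

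Names came from the reference table of assembly Zm-B73-REFERENCE-NAM-5.0, which matched 18775 IDs (47.3%), 520 of them to more than 1 gene, and gave 2644 a name. It holds symbols only. Neighbours of kn1 follow its gene order, which the counts need not share, and only tested genes matched to exactly 1 reference gene were placed in it. The 30 gene lists were matched by symbol, whatever the product. Lists, members and rules were chosen with earlier results of these data known. Named were kn1, lg3, lg4 and GIF1, and up to 4 called members by smallest p of the 8 lists with most calls (12 with ties). To these were added the 10 largest named and 3 largest unnamed changes each way (at least 1 CPM on average, groups not overlapping). The rest were the named genes with differing steps (up to 5 each way) and called genes within 25 tested genes of kn1. Other genes named in the report were chosen after their values were seen.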

Additional observations from a re-analysis of the deposited data

How the results depend on the processing

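All alternatives below were chosen with earlier results of these data known. With TMM scaling and all 6 libraries, 1049 genes were called (361 higher, 688 lower), 19 differed between steps, and 68 genes named by the rule and 69 members of the gene lists were called. DESeq2 called 612 genes (198 higher, 414 lower), and the cause was not tested. The replicate block raised the count of genes called higher to 646 and that of cytosolic ribosomal protein genes from 3 to 13. Over all genes tested, same-numbered libraries did not deviate together (correlations 0.0057, −0.0363 and 0.0774 between the 3 pairs of groups). Such correlations cannot show whether the numbers pair the libraries in part of the genes. The summed handling or heat markers were higher in replicate 2 than in replicate 1 of each group. The blocked fit shared all 1049 calls. Leaving out 1 library at a time gave 166 to 3105 calls (45 to 1507 higher, 121 to 1598 lower), with 0 to 270 genes differing between steps, 29 to 67 named genes called and 16 to 144 list members called. Calls of genes, named genes and list members were fewest without homozygote replicate 2 and most without heterozygote replicate 2. Over those 6 fits the second step of lg4, which was never called, ran from −0.0011 without heterozygote replicate 1, where its sign turned, to 0.27 without heterozygote replicate 2. Of the 68 called named genes 23 kept their call under all 12 alternatives, and none changed sign. Scaling by library totals moved the median of all genes from 0.003 to −0.024. With 2 libraries a group and 3 residual degrees of freedom, a missing call does not show that a gene is unchanged. No other scaling or filter moved these counts by over 1.5 times.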

Other observations

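Further symbol families were looked at after their values were seen, so their counts are descriptions and not tests. Over all genes tested, 1.64% were called higher and 3.12% lower. Of 7 tested tubulin genes 3 fell and none rose. The alpha-tubulin gene tua6 went from 341 and 286 CPM in heterozygotes to 236 and 241 CPM in homozygotes (−0.39 ± 0.08, adjusted p = 0.0098), and tub4, a beta-tubulin gene, from 130 and 106 CPM to 90.5 and 81.6 CPM (−0.46 ± 0.09, adjusted p = 0.0098). Of 6 tested actin genes 2 fell, Actin-7 by 0.35 on the log2 scale and the gene listed as actin by 0.29. Both mha2 and mha4, of 3 tested genes for plasma membrane proton pumps, fell as well, and mha4 went from 106 and 92.3 CPM to 62.5 and 67.4 CPM (−0.61 ± 0.08, adjusted p = 0.0006). The call of mha4 held under all 12 alternatives, those of mha2 and tub4 were lost without homozygote replicate 2, that of Actin-7 without homozygote replicate 1, and those of tua6 and the gene listed as actin were lost without either homozygous library. Of 6 tested brittle stalk genes, which belong to the COBRA-like family of cellulose deposition, bk4 and Bk2L3 fell by 0.30 and 0.32 on the log2 scale. Both calls were lost without either homozygous library, and that of bk4 also without heterozygote replicate 1 and with DESeq2.

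Glutathione S-transferase genes, whose enzymes attach glutathione to toxic or oxidised compounds, moved both ways. Of 20 tested, 3 rose (background 1.64%) and 4 fell (background 3.12%), with a median of 0.07. The gene gst9 went from 14.5 and 12.6 CPM to 6.55 and 6.77 CPM (−1.02 ± 0.13, adjusted p = 0.00056), and gst5 from 13.2 and 11.3 CPM to 19.2 and 20.1 CPM (0.68 ± 0.11, adjusted p = 0.0028). Of 6 tested superoxide dismutase genes 3 rose and none fell, with Sod3.2 at 0.38 ± 0.06, sod4 at 0.31 ± 0.06 and CSD4 at 0.25 ± 0.06. Of 9 tested annexin genes 1 rose and 2 fell. The flowering regulator id1, known for its expression in immature maize leaves, stood at 12.8 and 14.3 CPM in homozygotes, 21.4 and 16.9 CPM in heterozygotes, and 23.6 and 26 CPM in wild type (−0.50 ± 0.12, adjusted p = 0.035). The call of gst9 held under all 12 alternatives, and that of gst5 was lost without homozygote replicate 2. The calls of the 3 dismutase genes were lost without either homozygous library, and that of CSD4 also without heterozygote replicate 1. The call of id1 held under 5 of 12 alternatives: it was lost with DESeq2, with the 4 mutant libraries alone, and on leaving out any 1 library other than heterozygote replicate 2.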
